A study of Mus musculus with 7 samples.

Results

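F-box protein genes were examined in mouse oocytes before and after meiotic maturation. Members were the entries of the expression tables whose gene symbol began with Fbxo, Fbxw or Fbxl followed by a digit, and 77 of the 25908 entries used met this rule. They comprised 36 Fbxo, 22 Fbxw and 19 Fbxl entries. One of them, Fbxl12os, is an antisense transcript and encodes no F-box protein. All oocytes came from 4-week-old female mice of C57BL/6 background primed with PMSG for 44 h, carried the genotype label Control, and were pooled at 10 per Smart-seq2 library. The groups were germinal vesicle (GV) oocytes (2 libraries), metaphase II (MII) oocytes cultured with the solvent DMSO (3 libraries) and MII oocytes cultured with BYBX, a compound that stabilizes RNA G-quadruplexes (2 libraries). Culture to MII took 16 h in M16 medium. GV oocytes carry a treatment label of NO, whereas the methods of the study describe DMSO for the GV and MII controls alike, and the labels of the BYBX libraries name no concentration. Legends of the study name 1 μM BYBX for the MII oocytes whose ribosome profiles were set beside these RNA data. The study reports less frequent polar body emission at higher BYBX concentrations, and abnormal spindles in the treated oocytes that did reach MII. Whether the BYBX libraries held only oocytes with a polar body is not stated.

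F-box proteins are the exchangeable subunits of SCF ubiquitin ligases. Through the F-box motif they bind SKP1, which links them to the scaffold CUL1 and the RING protein RBX1, and a second domain holds the substrate that is to be ubiquitinated. The substrate-binding domain names the subfamilies. Fbxw proteins carry WD40 repeats, Fbxl proteins carry leucine-rich repeats, and Fbxo proteins carry other domains or none that is recognized. In oocytes the best-known members act on the anaphase-promoting complex (APC/C): FBXO43, also called EMI2, inhibits the APC/C to hold the egg at MII, and FBXO5, or EMI1, is a related inhibitor. The fully grown oocyte is transcriptionally silent, so maturation proceeds on stored maternal mRNA, much of which is degraded or loses its poly(A) tail on the way to MII.

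Expression is given as FPKM, fragments normalised for transcript length and library size, which the authors scaled to an ERCC spike-in, with each batch then set relative to its own GV samples. The labels name no batch and the tables list no ERCC entry, so the scale could not be checked. Call counts, subfamily medians and many single genes are therefore also given under other scales. These were libraries brought to equal total FPKM (equal totals) and libraries with their median log2 values aligned (aligned medians). Values for which no scale is named are on the deposited scale and may not hold under the others. Read depth is unknown. Libraries were primed with oligo-dT, so a lower value cannot tell a lost transcript from a shortened poly(A) tail. Total FPKM was 402113 and 489569 in GV, between 109732 and 127254 in MII with DMSO, and 201482 and 246710 with BYBX. The 12 oocyte markers summed to between 10347 and 13517 FPKM in GV, between 1955 and 2142 FPKM in MII with DMSO and between 5504 and 5932 FPKM with BYBX. The 11 granulosa and cumulus markers summed to 12.2 FPKM or less in every library, with Ptx3 listed at 0 throughout, and the 7 listed erythrocyte markers to 1.20 FPKM or less. The granulosa and cumulus sum was 5.79 and 12.2 FPKM in GV, between 1.51 and 1.92 FPKM in MII with DMSO and 2.51 and 2.56 FPKM with BYBX, and the part of these cells in the differences was not tested. In bulk samples fewer cells of a type and less RNA per cell cannot be told apart. Whether the libraries came from separate animals is not stated, so p-values measure the spread between these samples.

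Most of the F-box FPKM in the GV oocyte belonged to 1 gene cluster. Of the Fbxw entries numbered 13 to 28, 13 lie in 1 region on the minus strand of mouse chromosome 9 (GRCm38, chr9:109139447-109790670, 651.2 kb). Their order is Fbxw21, Fbxw13, Fbxw20, Fbxw14, Fbxw28, Fbxw22, Fbxw16, Fbxw19, Fbxw15, Fbxw24, Fbxw18, Fbxw26 and Fbxw27. The region also holds the protein-coding gene Fbxw25 and the pseudogene Fbxw23, which are not among the entries. The cluster here means the 13 genes that are. Fbxw17 lies apart on chromosome 13 (chr13:50417864-50433780, plus strand). The coding sequences of the 13 cluster genes shared between 81.2% and 99.1% of their bases (median 84.5% over 78 pairs), against 61.4% to 63.4% with Fbxw17. The pair Fbxw14 and Fbxw28 gave the highest identity, and Fbxw22 shared 92.6% with Fbxw14 and 92.2% with Fbxw28. The methods of the study name uniquely mapped reads for transcript assembly. Reads that fit more than 1 of these genes may therefore have been left out, and the separate values of such genes are uncertain.

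The promoters of the cluster were also alike. RefSeq promoter sequences (GRCm38.p6) were at hand for 57 of the 77 members, among them 10 of the cluster, with none for Fbxw13, Fbxw22 and Fbxw27. Over the 250 bases before the start site the 10 shared 71.6% to 97.2% of bases (median 86.4% over 45 pairs), and 56.4% to 60.8% with Fbxw17. The last 100 bases before the start are shown for the near-identical pair (Fbxw14, chr9:109287677-109287776, and Fbxw28, chr9:109339660-109339759), for 2 genes with far lower levels at MII (Fbxw15, chr9:109568263-109568362, and Fbxw21, chr9:109162023-109162122), all on the minus strand, and for Fbxw17 (chr13:50417764-50417863, plus strand). Capitals mark CAGCTG, the core of an E-box, and TTTAAA. In Fbxw15 no whole CAGCTG lies within the stretch shown, which begins with agctg.
Fbxw14: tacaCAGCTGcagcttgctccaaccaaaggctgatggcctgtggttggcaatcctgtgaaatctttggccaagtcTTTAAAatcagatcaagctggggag
Fbxw28: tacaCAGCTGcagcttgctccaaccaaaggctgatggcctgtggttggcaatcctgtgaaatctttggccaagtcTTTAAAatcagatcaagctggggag
Fbxw15: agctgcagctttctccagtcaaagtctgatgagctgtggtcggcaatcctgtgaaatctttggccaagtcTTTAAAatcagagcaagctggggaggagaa
Fbxw21: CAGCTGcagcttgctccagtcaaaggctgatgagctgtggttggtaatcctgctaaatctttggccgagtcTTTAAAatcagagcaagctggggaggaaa
Fbxw17: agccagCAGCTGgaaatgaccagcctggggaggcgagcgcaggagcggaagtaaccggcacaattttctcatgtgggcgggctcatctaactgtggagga

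CAGCTG occurred in the 300-base window (250 before to 50 after the start) of 10 of the 10 cluster promoters and of Fbxw17, against 16.1% of all 27025 promoters, and TTTAAA in 9 of the 10 (all but Fbxw20) and not in Fbxw17, against 13.2%. TATAAA was in none of the 10 (all promoters 14.2%), nor was TAATTG (8.15%). Both strands were searched, and these 4 motifs were chosen after the sequences had been seen. The 10 cluster promoters share most of their bases, so they are not separate cases, and no enrichment was tested. Genes with these closely alike promoters had GV levels from 117 FPKM for Fbxw26 to 2719 FPKM for Fbxw28.

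In GV oocytes the 11 F-box genes of highest mean level all belonged to the cluster. The 13 genes summed to 11398 and 9224 FPKM in GV, 2189, 2204 and 1802 FPKM in MII with DMSO and 4192 and 4838 FPKM in MII with BYBX. That was between 84.4% and 90.3% of the F-box total of each library. Of all FPKM, the Fbxw genes held 2.34 and 2.31% in GV, 2.01, 1.79 and 1.43% in MII with DMSO and 1.71 and 2.42% in MII with BYBX, the Fbxo genes 0.196 and 0.166% in GV, 0.166, 0.16 and 0.153% in MII with DMSO and 0.154 and 0.175% in MII with BYBX, and the Fbxl genes 0.0751 and 0.0678% in GV, 0.0869, 0.0847 and 0.0956% in MII with DMSO and 0.0861 and 0.0885% in MII with BYBX. Of the 2 BYBX libraries, the first lay within the range of the DMSO libraries in its Fbxw share and the second above GV. By mean GV level Fbxw28 ranked 7 and Fbxw14 ranked 9 of all 25908 entries. A GV mean above 100 FPKM was found for 12 of 22 Fbxw entries, 2 of 36 Fbxo entries and 1 of 19 Fbxl entries. Among tested members the median GV level was 237 FPKM for Fbxw, 17.3 FPKM for Fbxo and 8.94 FPKM for Fbxl, and no untested member exceeded 1.46 FPKM in its GV mean.

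Within the cluster, the levels diverged at MII. Fbxw28 was at 3008 and 2430.3 FPKM in GV, 819.9, 841 and 694 FPKM in MII with DMSO, and 1253 and 1446 FPKM in MII with BYBX. Fbxw14 was at 2620.2 and 2174 FPKM in GV, 788, 798 and 657 FPKM in MII with DMSO, and 1231 and 1365 FPKM in MII with BYBX. Fbxw15 was at 1085 and 856 FPKM in GV, 26.6, 22.4 and 15.9 FPKM in MII with DMSO, and 213 and 269.6 FPKM in MII with BYBX. In each of these genes the 3 groups did not overlap, with the BYBX libraries between the others. The mean of Fbxw28 in MII with DMSO was 28.9% of its GV mean and that of Fbxw15 was 2.23%.

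On the log2(FPKM + 1) scale the largest differences from GV were those of 4 cluster genes. Fbxw21 was at 491 and 389 FPKM in GV, 9.15, 8.64 and 6.0 FPKM in MII with DMSO, and 103 and 114 FPKM in MII with BYBX. Fbxw26 was at 132 and 102 FPKM in GV, 1.91, 1.22 and 1.29 FPKM in MII with DMSO, and 29.1 and 35.9 FPKM in MII with BYBX. Fbxw13 was at 95.5 and 71.2 FPKM in GV, 1.21, 1.27 and 0.962 FPKM in MII with DMSO, and 19.7 and 30.6 FPKM in MII with BYBX. All MII libraries with DMSO were far below GV, and the BYBX libraries lay between. The log2 differences of MII with DMSO minus GV, on log2(FPKM + 1) by limma with Benjamini-Hochberg adjustment over 9202 entries, were -5.63 ± 0.26 (SE, adjusted p = 4.6e-10) for Fbxw21, -5.58 ± 0.25 (SE, adjusted p = 4.0e-10) for Fbxw26, -5.44 ± 0.28 (SE, adjusted p = 7.5e-10) for Fbxw15 and -5.28 ± 0.26 (SE, adjusted p = 6.7e-10) for Fbxw13. These 4 stayed lower, past the threshold, with equal totals and with aligned medians. The pseudocount of 1 understates the change of genes that end near 1 FPKM, such as Fbxw13 and Fbxw26. As a percentage of the GV mean, 0.903% remained for Fbxl8 and 1.02% for Fbxl2, less than for any cluster gene, beside 1.26% for Fbxw26, 1.33% for Fbxo17, 1.38% for Fbxw13, 1.44% for Fbxo31 and 1.8% for Fbxw21. Fbxl2, Fbxo17 and Fbxo31 were named after their values had been seen, and their GV means were between 6.21 and 10.9 FPKM. In MII with DMSO the means were 0.073 FPKM for Fbxl8, 0.0956 for Fbxl2, 0.145 for Fbxo17 and 0.0892 for Fbxo31, near the floor. These genes passed the filter on mean level largely through GV, so low percentages among them are in part set by it. Their order against the cluster genes is therefore uncertain.

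Fbxw22 kept the most. It was at 247 and 215 FPKM in GV, 97.8, 113 and 89.4 FPKM in MII with DMSO, and 153 and 154 FPKM in MII with BYBX, and its mean in MII with DMSO was 43.4% of the GV mean. Its log2 difference was -1.20 ± 0.24 (SE, adjusted p = 3.3e-04) by limma on the deposited scale, but 0.67 with equal totals and 1.10 with aligned medians, so its direction depends on the scale. The same turn of sign was found for Fbxw14 (-1.68, then 0.21 and 0.62) and Fbxw28 (-1.79, then 0.098 and 0.52). Fbxw14 and Fbxw28 were called higher with aligned medians and not called with equal totals. A ratio of 2 genes within a library does not depend on that library's scale. Fbxw22 to Fbxw21 was 0.503 and 0.554 in GV, 10.7, 13.1 and 14.9 in MII with DMSO and 1.48 and 1.35 in MII with BYBX. Fbxw14 to Fbxw15 was 2.42 and 2.54, 29.6, 35.6 and 41.3, and 5.78 and 5.06, in the same order. The groups did not overlap in either ratio. The pairs were chosen after their values had been seen and no test was made.

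The other cluster genes lay between these extremes. Fbxw24 was at 1368 and 1141 FPKM in GV, 232, 223 and 167 FPKM in MII with DMSO, and 504 and 614 FPKM in MII with BYBX, and Fbxw18 at 929 and 754 FPKM in GV, 81.5, 74.3 and 66.5 FPKM in MII with DMSO, and 291 and 345 FPKM in MII with BYBX. Fbxw20 was at 383 and 319.8 FPKM in GV, 33.1, 37.7 and 30.6 FPKM in MII with DMSO, and 129 and 106 FPKM in MII with BYBX. Log2 differences of MII with DMSO minus GV were -4.20 for Fbxw16, -4.19 for Fbxw27, -3.48 for Fbxw18, -3.34 for Fbxw20, -2.60 for Fbxw24 and -2.35 for Fbxw19, each past the threshold in limma on the deposited scale. Fbxw24 was also called lower with equal totals and not with aligned medians, and Fbxw19 under neither. In all, 13 of 13 cluster genes were lower in MII with DMSO on the deposited scale, 9 were lower and 1 higher with equal totals, and 8 were lower and 3 higher with aligned medians. The shares of all entries were 88.3% lower and 0.272% higher on the deposited scale, 49.5% and 23.3% with equal totals, and 26.7% and 48.8% with aligned medians. Fbxw17, outside the cluster, was at 17.3 and 14.1 FPKM in GV, 0.463, 0.166 and 0.627 FPKM in MII with DMSO, and 6.44 and 3.92 FPKM in MII with BYBX, with a log2 difference of -3.57 ± 0.25 (SE, adjusted p = 1.1e-08) by limma and the same direction under all 3 scales.

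**Figure D1:**
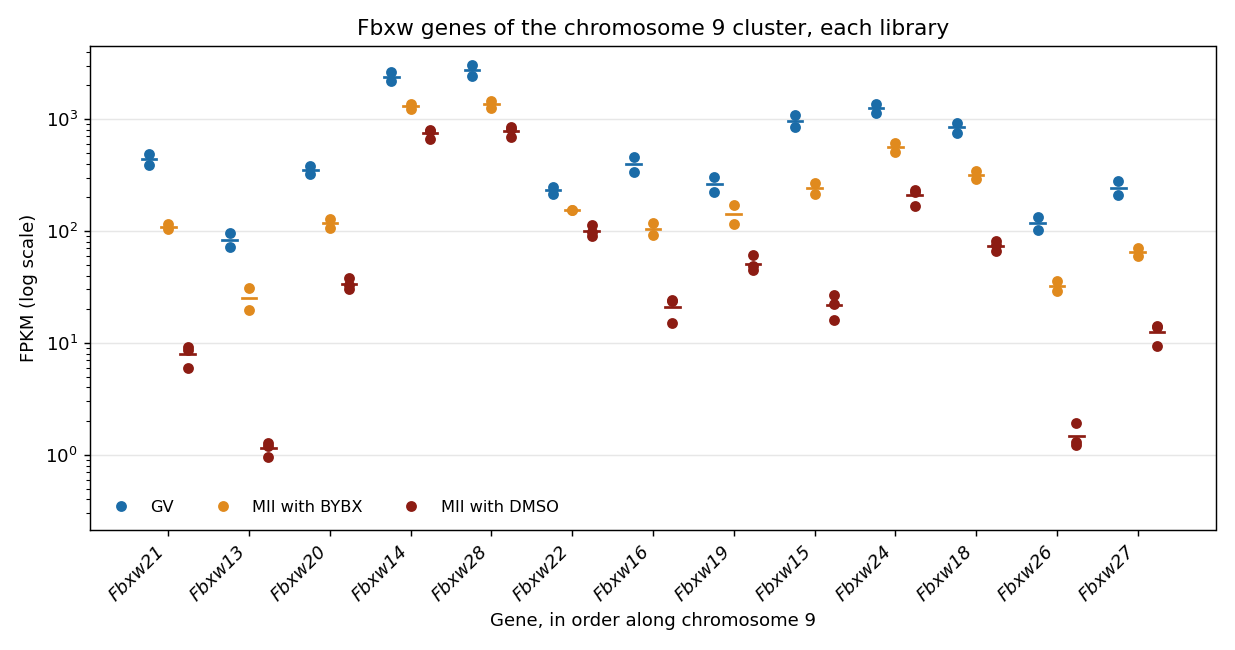
FPKM (log axis) of the 13 Fbxw genes of the chromosome 9 cluster, in their order along the chromosome, with 1 point per library and a bar at the group mean for GV (2 libraries), MII with BYBX (2) and MII with DMSO (3). Neighbouring genes such as Fbxw13, Fbxw20 and Fbxw14 differ widely in how far MII with DMSO lies below GV on the deposited scale. Fbxw22 is called higher under both rescalings, and Fbxw14 and Fbxw28 with aligned medians only.

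The 2 APC/C inhibitors, in the Fbxo subfamily, differed from each other. Fbxo5 was at 179.7 and 147 FPKM in GV, 22.8, 21.6 and 25.3 FPKM in MII with DMSO, and 66.7 and 55.5 FPKM in MII with BYBX. Fbxo43 was at 77.3 and 50.8 FPKM in GV, 36.4, 46 and 40.3 FPKM in MII with DMSO, and 55.2 and 43.7 FPKM in MII with BYBX. The groups of Fbxo5 did not overlap, and those of Fbxo43 lay close together, with 1 BYBX library between the 2 GV libraries. By limma, MII with DMSO minus GV was -2.76 ± 0.25 (SE, adjusted p = 1.3e-07) for Fbxo5, which was also called lower with equal totals (-0.91) and with aligned medians (-0.46). For Fbxo43 it was -0.61 ± 0.27 (SE, adjusted p = 0.046) by limma, which turned to 1.24 and 1.69, both past the threshold, under those scales. The call for Fbxo43 on the deposited scale was narrow: without GV replicate 1 the difference was -0.31 (limma adjusted p = 0.32), and it was also lost without any 1 of the 3 DMSO or 2 BYBX libraries (-0.70 to -0.53). The ratio of Fbxo43 to Fbxo5 was 0.43 and 0.345 in GV, 1.6, 2.13 and 1.6 in MII with DMSO and 0.829 and 0.786 in MII with BYBX, without overlap and not tested.

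Both transcripts hold the motif of a cytoplasmic polyadenylation element, the U-rich 3′UTR signal through which stored oocyte mRNAs gain poly(A) tails. The search was for TTTTAT or TTTTAAT in the last 150 bases of the longest coding transcript of GENCODE vM21. The sites are shown with the motif in capitals, and begin 103 and 84 bases from the 3′ end.
Fbxo43: atatatgtgtTTTTATactatacaca
Fbxo5: tgtgagttttTTTTATatctgtgaat
Such a motif was found in 9 of 57 tested members (15.8%), against 24.9% of the 8769 tested entries with a transcript, and in none of the 13 cluster genes. Most annotated 3′UTRs of the cluster are shorter than the window searched, such as 34 bases in Fbxw27 and 89 in Fbxw16. In those genes part of the window was coding sequence and little 3′UTR was searched. The median log2 difference of MII with DMSO minus GV on the deposited scale was -0.85 for the members with the motif and -2.10 for those without, and -1.32 and -2.01 over all entries. Members without it include all 13 cluster genes, whose median was -3.48. By subfamily, the medians with and without it were -0.73 and -1.29 for Fbxl, -0.87 and -2.06 for Fbxo, and -1.63 and -2.91 for Fbxw.

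Other Fbxo genes ranged widely. Fbxo34 was at 215 and 107 FPKM in GV, 6.82, 6.5 and 6.99 FPKM in MII with DMSO, and 71.3 and 58.4 FPKM in MII with BYBX, and Fbxo46 at 33 and 27.5 FPKM in GV, 0.574, 0.73 and 0.643 FPKM in MII with DMSO, and 7.4 and 6.16 FPKM in MII with BYBX. In both genes the 3 groups did not overlap. Their log2 differences of MII with DMSO minus GV were -4.30 ± 0.30 (SE, adjusted p = 1.0e-08) and -4.24 ± 0.22 (SE, adjusted p = 9.1e-10) by limma, lower under all 3 scales. Fbxo8, which also carries a SEC7 domain, was at 65.7 and 51.8 FPKM in GV, 31.9, 39.1 and 32 FPKM in MII with DMSO, and 33.5 and 36.4 FPKM in MII with BYBX, and Fbxo28 at 62.2 and 46.8 FPKM in GV, 8.23, 8.47 and 8.87 FPKM in MII with DMSO, and 20.5 and 19.7 FPKM in MII with BYBX. Fbxo8 differed by -0.75 on the deposited scale, a call lost without GV replicate 1 (-0.58), and by 1.09 with equal totals. Fbxo28 differed by -2.53, was lower with equal totals and was not called with aligned medians. Fbxo30 was at 28.9 and 18.1 FPKM in GV, 5.37, 4.76 and 3.3 FPKM in MII with DMSO, and 5.76 and 9.23 FPKM in MII with BYBX, and differed by -2.14 on the deposited scale, with no call with equal totals (-0.45) or with aligned medians (0.16).

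The 5 tested members that limma did not call lower in MII with DMSO on the deposited scale were Fbxo15, Fbxo21, Fbxw7, Fbxw11 and Fbxl19. Fbxo15, known as a target of OCT4 in embryonic stem cells, was at 4.97 and 2.78 FPKM in GV, 4.17, 3.35 and 4.42 FPKM in MII with DMSO, and 3.53 and 4.5 FPKM in MII with BYBX, and its groups overlapped. Fbxo21 was at 20.6 and 13.1 FPKM in GV, 12.9, 10.3 and 12.7 FPKM in MII with DMSO, and 19.8 and 17.1 FPKM in MII with BYBX. Fbxw7, the receptor for cyclin E, was at 4.87 and 5.43 FPKM in GV, 2.1, 4.35 and 4.53 FPKM in MII with DMSO, and 5.3 and 3.14 FPKM in MII with BYBX. Fbxw11, or beta-TrCP2, was at 7.06 and 3.43 FPKM in GV, 3.46, 2.41 and 3.04 FPKM in MII with DMSO, and 4.6 and 6.01 FPKM in MII with BYBX. Fbxl19, which binds CpG-rich DNA, was at 3.41 and 1.68 FPKM in GV, 1.05, 2.17 and 2.09 FPKM in MII with DMSO, and 4.83 and 1.95 FPKM in MII with BYBX. Their log2 differences on the deposited scale were 0.062, -0.43, -0.45, -0.60 and -0.34 in this order. All 5 were called higher with equal totals and with aligned medians. Without GV replicate 2, Fbxo21 (-0.74) and Fbxw11 (-1.03) passed as lower, and Fbxw11 did so also without DMSO replicate 1 (-0.69) or without either BYBX library.

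**Figure D2:**
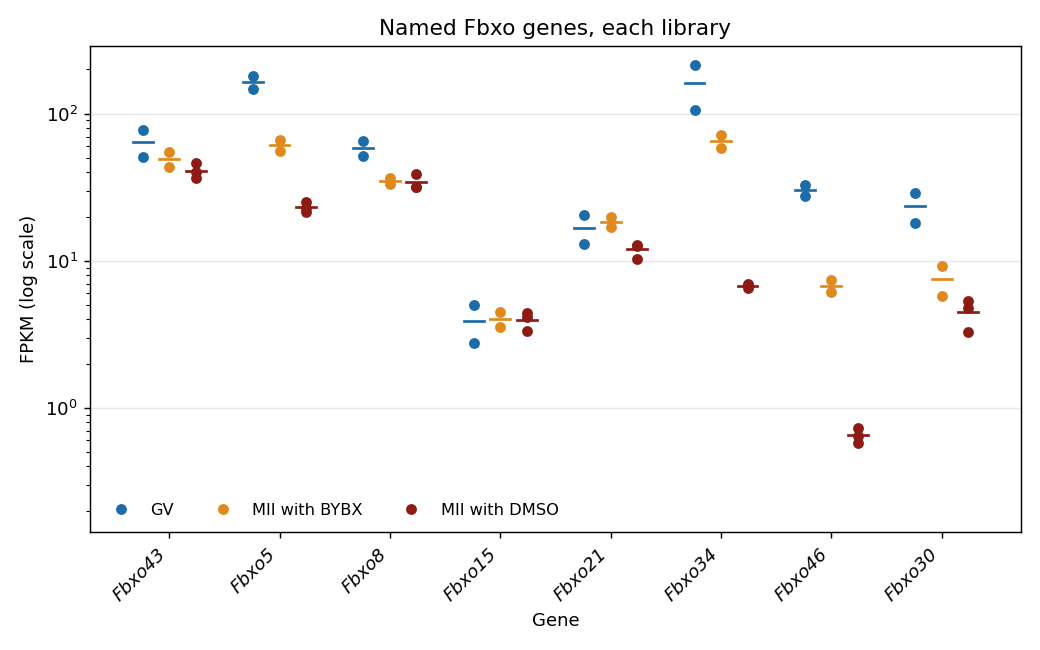
FPKM (log axis) of 8 Fbxo genes named in the text, with 1 point per library and a bar at the group mean for GV (2 libraries), MII with BYBX (2) and MII with DMSO (3). Fbxo34, Fbxo46 and Fbxo5 are lower at MII with DMSO than at GV under all 3 scales, whereas Fbxo43, Fbxo8 and Fbxo21 change direction with the scale.

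The Fbxl genes were the least abundant of the 3 subfamilies. Fbxl6 alone exceeded 100 FPKM in GV, at 249 and 185 FPKM in GV, 58.4, 66.9 and 84.9 FPKM in MII with DMSO, and 133 and 118 FPKM in MII with BYBX. Fbxl5, an iron-sensing receptor for the iron regulatory protein IRP2, was at 28 and 17.5 FPKM in GV, 12.9, 10.1 and 10.4 FPKM in MII with DMSO, and 15.1 and 18 FPKM in MII with BYBX. Fbxl20 was at 15.8 and 12.9 FPKM in GV, 9.09, 8.84 and 9.1 FPKM in MII with DMSO, and 15.1 and 12.8 FPKM in MII with BYBX. Their log2 differences of MII with DMSO minus GV were -1.62, -0.94 and -0.61 on the deposited scale. All 3 turned positive with equal totals and with aligned medians, though Fbxl6 was not called with equal totals (0.25). Fbxl12 was at 14.1 and 12.4 FPKM in GV, 5.43, 7.21 and 6.26 FPKM in MII with DMSO, and 19 and 6.98 FPKM in MII with BYBX, where the first BYBX library stood above GV and the second below. Fbxl12 differed by -0.97 on the deposited scale and turned positive with equal totals (0.73) and with aligned medians (1.33). Fbxl14, a receptor for SNAIL1, differed by -2.67. It was also lower with equal totals (-1.45), with no call with aligned medians (-0.36). Without GV replicate 1 the calls of Fbxl5 (-0.61), Fbxl20 (-0.47) and Fbxl12 (-0.88) were lost. The call of Fbxl12 was also lost without GV replicate 2 (-1.06), and that of Fbxl20 without any 1 of the 3 DMSO libraries (-0.61 to -0.59). Fbxl8 was at 9.15 and 7.02 FPKM in GV, 0.172, 0.00979 and 0.0372 FPKM in MII with DMSO, and 0.941 and 1.67 FPKM in MII with BYBX, differed by -3.07 ± 0.21 (SE, adjusted p = 7.8e-09) by limma, and was lower under all 3 scales.

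A predicted RNA G-quadruplex, taken as 4 G-runs of 3 or more bases separated by loops of 1 to 7 bases, was found in the longest coding transcript of 9 of the 57 tested members (15.8%), against 17.4% of all 8769 tested entries with a transcript. They were 5 of 12 Fbxl genes (Fbxl12, Fbxl14, Fbxl18, Fbxl19 and Fbxl20), 2 of 25 Fbxo genes (Fbxo3 and Fbxo45) and 2 of 20 Fbxw genes (Fbxw4 and Fbxw7), and none of the 13 cluster genes. The median log2 difference of MII with BYBX minus MII with DMSO on the deposited scale was 0.61 for members with the motif and 1.0 for those without, and 0.77 and 0.86 over all entries. Members without it include all 13 cluster genes, whose median was 2.09. By subfamily, the medians with and without it were 0.80 and 0.54 for Fbxl, 0.23 and 0.78 for Fbxo, and 0.47 and 1.91 for Fbxw. The direction was thus not the same in the 3 subfamilies. A match to the pattern is a description of the sequence only.

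As a list, the share of members called was near the share of all entries called. The 57 members whose mean over the 3 group means was at least 1 FPKM were tested, and 20 were not, among them Fbxo2, Fbxo6 and Fbxo41, which were listed at 0 in all 7 libraries. In MII with DMSO against GV, limma called 52 of the 57 lower (all entries 88.3%) and 0 higher (0.272%) at an adjusted p under 0.05. With equal totals it called 25 lower (49.5%) and 16 higher (23.3%), and with aligned medians 19 lower (26.7%) and 29 higher (48.8%). Beside each count stands the share of all 9202 entries called in that direction. The median log2 difference was -1.79 for the members and -1.83 for all entries on the deposited scale, and the rescalings moved the latter to -0.56 and 0.47.

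The subfamilies differed around this median. On the deposited scale the median log2 difference of MII with DMSO minus GV was -0.96 for 12 Fbxl genes, -1.57 for 25 Fbxo genes and -2.76 for 20 Fbxw genes. Within Fbxw it was -3.48 for the 13 cluster genes and -1.45 for the other 7. The Fbxl and Fbxo medians turned positive with equal totals (0.46 and 0.14) and with aligned medians (1.35 and 0.73), whereas the Fbxw median stayed negative (-1.10 and -0.45). Within Fbxw, the median of the 13 cluster genes was -1.61 and -1.18 under these 2 scales. That of the other 7 was -0.14 with equal totals and turned positive, to 0.85, with aligned medians. The level in MII with DMSO was under 10% of GV for 8 of 13 cluster genes, 7 of 25 Fbxo genes and 4 of 12 Fbxl genes, against 39.2% of all entries. Libraries of GV and of MII with DMSO overlapped in 3 of the 57 members, those of GV and BYBX in 14 and those of DMSO and BYBX in 11, against 7.19%, 16.9% and 20.7% of all entries. These are descriptions of lists with no test. Lower in MII with DMSO under all 3 scales were 19 members, 10 of them Fbxw, 7 Fbxo and 2 Fbxl, against 26.7% of all entries, and the largest log2(FPKM + 1) differences among them were those of Fbxw21, Fbxw26, Fbxw15, Fbxw13 and Fbxo34, an order that the pseudocount of 1 sets in part.

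**Figure D3:**
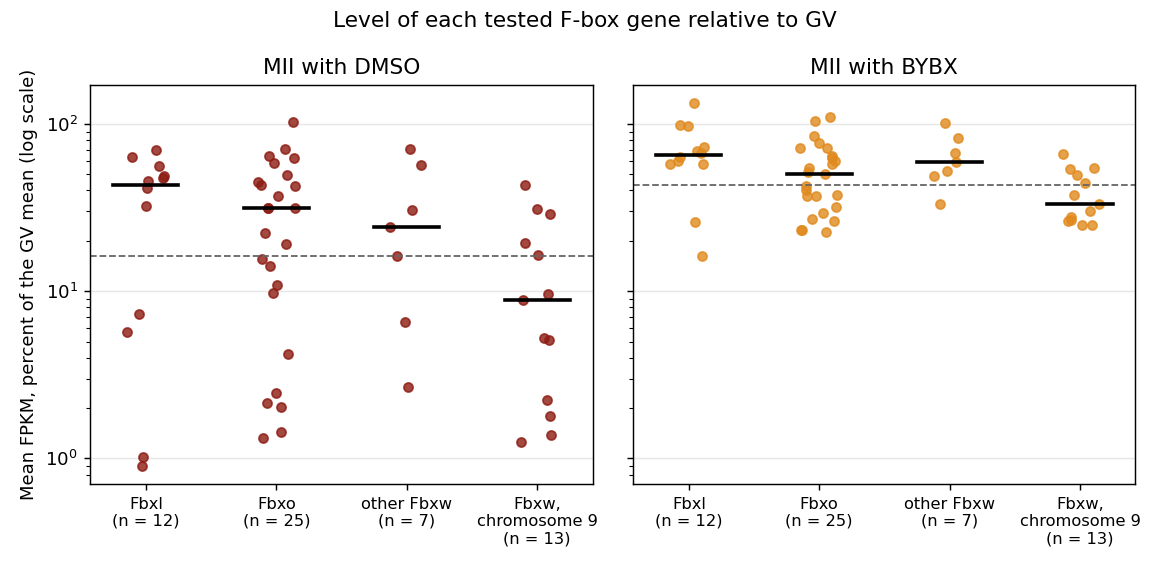
Mean FPKM of each tested F-box gene as a percentage of its GV mean (log axis), in MII with DMSO (left) and MII with BYBX (right), by subfamily, with the Fbxw genes split into the chromosome 9 cluster and the others. Points are genes, bars are group medians and the dashed line is the median of all entries tested, 16.3% and 43.4%. The values are on the deposited scale, on which every library's own scale enters.

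Most tested F-box genes were higher in BYBX-treated MII oocytes than in MII oocytes with DMSO on the deposited scale, and the split of the calls changed with the scale. Limma called 39 of the 57 members higher (all entries 65.2%) and 0 lower (0.0326%). With equal totals 22 were higher (39.9%) and 5 lower (8.22%), and with aligned medians 13 were higher (18.4%) and 22 lower (43.9%). The median log2 difference was 0.70 for Fbxl, 0.76 for Fbxo and 1.60 for Fbxw, beside 0.84 for all entries, which the rescalings moved to 0.34 and -0.44. With equal totals the Fbxl and Fbxo medians showed almost no difference (-0.027 and -0.018), and with aligned medians they were negative (-0.57 and -0.52). The Fbxw median stayed positive under both rescalings (0.75 and 0.33). Within Fbxw, it was 1.20 and 0.81 for the 13 cluster genes, and 0.26 and -0.41 for the other 7. In all 13 cluster genes both BYBX libraries lay above the 3 DMSO libraries and below the 2 GV libraries, an order found in 38 of the 57 members and in 71.1% of all entries.

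The largest positive log2 differences of MII with BYBX minus MII with DMSO, by limma, were those of 5 members. In order they were Fbxw26 at 3.76 ± 0.25 (SE, adjusted p = 7.7e-08), Fbxw21 at 3.64 ± 0.26 (SE, adjusted p = 1.2e-07), Fbxw13 at 3.58 ± 0.26 (SE, adjusted p = 1.3e-07), Fbxw15 at 3.44 ± 0.28 (SE, adjusted p = 2.6e-07) and Fbxo34 at 3.08 ± 0.30 (SE, adjusted p = 1.2e-06). All 5 were called higher under the 3 scales, as were 8 more: Fbxo40, Fbxo46, Fbxw8, Fbxw16, Fbxw17, Fbxw18, Fbxw20 and Fbxw27. These 13 were 22.8% of the tested members, against 18.4% of all entries. Among them Fbxw16 differed by 2.29, Fbxw27 by 2.31, Fbxw17 by 2.11, Fbxw18 by 2.09, Fbxw20 by 1.76 and Fbxo46 by 2.24. This comparison shares its DMSO libraries with that against GV.

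For the 3 cluster genes that kept the most of their GV level, the BYBX difference depended on the scale. It was 0.80 for Fbxw14, 0.78 for Fbxw28 and 0.62 for Fbxw22 on the deposited scale, all past the limma threshold. With equal totals the 3 values were -0.095, -0.11 and -0.27, with no call. With aligned medians they were -0.48, -0.50 and -0.66, each called lower. The Fbxw22 call was lost without any 1 of the DMSO or BYBX libraries (0.54 to 0.71), and the Fbxw28 call without BYBX replicate 2 (0.68). Fbxw24 differed by 1.43 and Fbxw19 by 1.44, called on the deposited scale only.

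Of the APC/C inhibitors, Fbxo5 was higher with BYBX than with DMSO, by 1.36 ± 0.25 (SE, adjusted p = 3.1e-04) by limma, and with equal totals, with no call with aligned medians (0.079). Fbxo43 differed by 0.26 ± 0.27 (SE, adjusted p = 0.39) in limma, with no call on the deposited scale, and was called lower with equal totals (-0.61) and with aligned medians (-1.01). Fbxw11 differed by 0.67, a call lost without BYBX replicate 2 (0.51) and without DMSO replicates 2 (0.56) or 3 (0.68), and was lower with aligned medians (-0.61). Fbxl6 differed by 0.84, a call lost without BYBX replicate 1 (0.76) and absent under both rescalings. Fbxw7 (0.18) and Fbxo30 (0.62) were not called on the deposited scale, and Fbxo30 passed without BYBX replicate 1 (0.92) or DMSO replicate 1 (0.74).

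Against GV, BYBX-treated MII oocytes remained lower for many members on the deposited scale. Limma called 35 of 57 lower (all entries 69.2%) and 0 higher (0.315%). With equal totals 7 were lower (13.3%) and 2 higher (5.3%), and with aligned medians 10 were lower (13.6%) and 8 higher (15.2%). The members furthest below GV were Fbxo46 at -2.0 ± 0.24 (SE, adjusted p = 6.7e-05), Fbxw15 at -2.0 ± 0.30 (SE, adjusted p = 1.2e-04), Fbxw21 at -2.0 ± 0.29 (SE, adjusted p = 9.6e-05), Fbxl8 at -1.99 ± 0.23 (SE, adjusted p = 5.9e-05) and Fbxo3 at -1.97 ± 0.30 (SE, adjusted p = 1.3e-04) in limma. These 5 and Fbxo7, a gene linked to parkinsonism in people (-1.68), were lower under all 3 scales, 10.5% of the members against 11.6% of all entries. Fbxo3 was at 40.3 and 30.8 FPKM in GV, 5.55, 10.4 and 7.87 FPKM in MII with DMSO, and 9.06 and 7.56 FPKM in MII with BYBX. On the deposited scale its BYBX libraries thus lay within the range of the DMSO libraries. BYBX minus DMSO for Fbxo3 was called lower with equal totals (-0.73) and with aligned medians (-1.19). In MII with DMSO it differed from GV by -2.06 on the deposited scale, with no call under either rescaling. Fbxo5 differed from GV by -1.40, called on the deposited scale only. Fbxo43 (-0.35) and Fbxw22 (-0.58) were not called there, and Fbxo43 was higher with aligned medians (0.68).

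**Figure D4:**
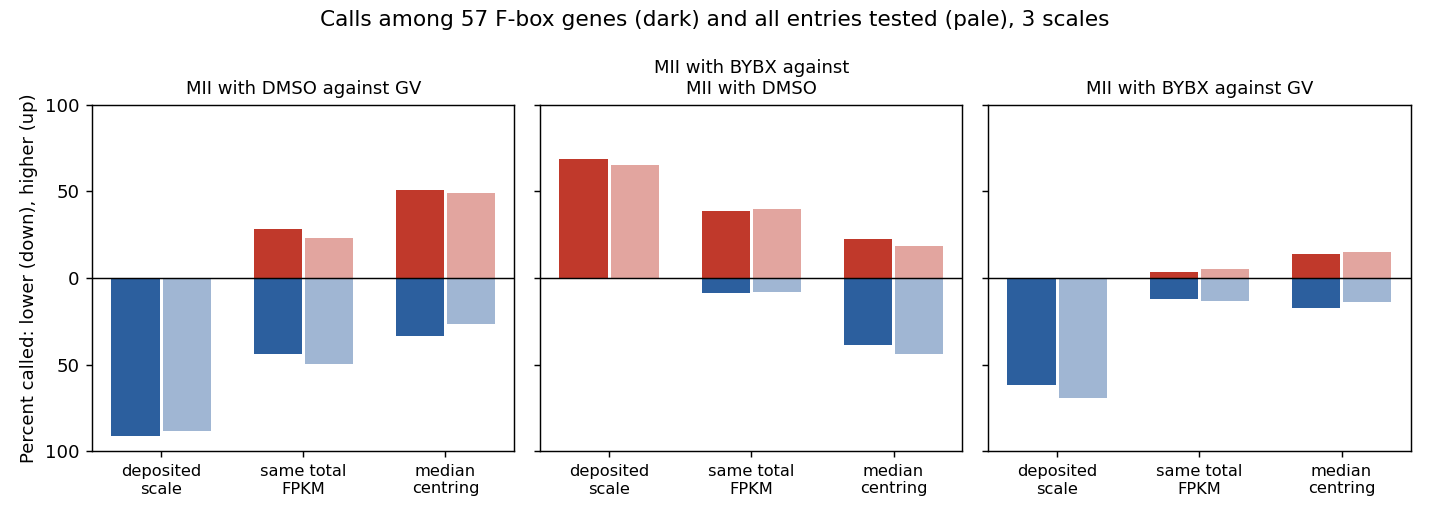
Percent of the 57 tested F-box genes (dark bars) and of all 9202 entries tested (pale bars) that limma called higher (upward) or lower (downward) at an adjusted p under 0.05, for the 3 comparisons and 3 scales (same total FPKM is the scale of equal totals, median centring that of aligned medians). On the deposited scale 91.2% of the members beside 88.3% of all entries were lower in the DMSO group at MII than in GV, and the higher calls in that comparison go from 0 members on the deposited scale to 29 with aligned medians.

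The partners of the F-box proteins were read from a list of 30 SCF core and neddylation genes, 29 of which were listed and 27 tested. In MII with DMSO against GV 25 of 27 were lower and 0 higher on the deposited scale, 15 lower and 5 higher with equal totals, and 12 lower and 9 higher with aligned medians, where the shares of all entries were 88.3% and 0.272%, 49.5% and 23.3%, and 26.7% and 48.8%. With BYBX against DMSO 19 of 27 were higher and 0 lower on the deposited scale, 11 higher and 1 lower with equal totals, and 8 each way with aligned medians, beside 65.2% and 0.0326%, 39.9% and 8.22%, and 18.4% and 43.9% of all entries. Skp1a, the adaptor that binds the F-box motif, was at 1691 and 1473 FPKM in GV, 125, 135 and 147 FPKM in MII with DMSO, and 578 and 462 FPKM in MII with BYBX. Cul1, the scaffold, was at 275 and 185 FPKM in GV, 136, 127 and 108 FPKM in MII with DMSO, and 159.7 and 179.9 FPKM in MII with BYBX. Rbx1, the RING subunit, was at 13.6 and 11.7 FPKM in GV, 0.769, 1.03 and 1.37 FPKM in MII with DMSO, and 4.59 and 3.82 FPKM in MII with BYBX. Cul1 kept more of its GV level than the other 2 on the deposited scale, where log2 differences of MII with DMSO minus GV were -3.53, -0.87 and -2.74 for Skp1a, Cul1 and Rbx1.

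F-box genes that carry other names were 7 on the list, all listed and 6 tested, with Nccrp1 at 0 in every library. Of the 6, 4 were lower at MII with DMSO than at GV under each of the 3 scales, while 0, 2 and 2 were higher, beside 88.3%, 49.5% and 26.7% lower and 0.272%, 23.3% and 48.8% higher among all entries. With BYBX against DMSO 4, 3 and 3 were higher and 0, 0 and 3 lower, beside 65.2%, 39.9% and 18.4% higher and 0.0326%, 8.22% and 43.9% lower among all entries. Btrc, or beta-TrCP1, the close relative of Fbxw11, was at 35.1 and 23.9 FPKM in GV, 1.08, 0.834 and 1.22 FPKM in MII with DMSO, and 10.1 and 7.33 FPKM in MII with BYBX. Ccnf, cyclin F, was at 24.8 and 13.6 FPKM in GV, 0.228, 0.164 and 0.252 FPKM in MII with DMSO, and 5.54 and 4.78 FPKM in MII with BYBX. Skp2, the receptor for the CDK inhibitor p27, was at 6.1 and 3.57 FPKM in GV, 3.95, 3.11 and 3.58 FPKM in MII with DMSO, and 3.9 and 5.14 FPKM in MII with BYBX. The Btrc and Ccnf groups did not overlap. On the deposited scale limma gave log2 differences of -3.88 (adjusted p = 5.2e-09) and -4.0 (adjusted p = 4.0e-09) for MII with DMSO minus GV. Skp2 overlapped between all groups, with -0.33 (limma adjusted p = 0.22).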

How the data were processed

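The 7 Smart-seq2 libraries were each made from 10 oocytes. Per the labels and the methods of the study, the authors trimmed reads (Trim Galore 0.6.7) and aligned them to mm10 (HISAT2 2.2.1). Uniquely mapped reads went into Cufflinks 2.2.1. FPKM values were normalised to the ERCC spike-in, with each batch then set relative to its own GV samples. The deposited FPKM values carry no read counts, so depth is unknown and no counting interval is given. Of 25912 entries, 4 with a missing value were left out. Values were taken as log2(FPKM + 1) for the 9202 entries that averaged 1 FPKM or more over the 3 groups, and all 7 libraries were fitted together in limma 3.58.1 (R 4.3.3) with an intensity trend. P-values were adjusted by Benjamini-Hochberg within each comparison, with a threshold of 0.05, and the residual degrees of freedom were 4. The fit was tested on data simulated around the means of MII with DMSO, with some entries raised in the BYBX group. The simulation held no shift of scale between groups, so it cannot speak to the choice of scale. Equal totals and aligned medians were the main alternatives to the deposited scale, beside another pseudocount, other filters, a fit without the trend, omission of repeated symbols, a 2-fold minimum, fits of 2 groups, a replicate block and leaving out each library. Sequences came from GENCODE vM21 transcripts and RefSeq promoters. The members and lists were chosen with earlier results of these data known. Genes were named when they have a known role in oocytes, belong to the cluster, were among the 5 highest in GV per subfamily, were among the 5 of largest called log2 change in a comparison or among members called alike under all 3 scales, or were not called lower in MII with DMSO. Other genes are named only as members of a count or holders of a sequence feature, or after their values were seen. The sign of each difference is given as the first group minus the second.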

Additional observations from a re-analysis of the deposited data

How the results depend on the processing

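The scale of the libraries decided the direction of many results, and the other alternatives changed no count by more than 1.5 times. With equal totals, calls among the 57 members were 16 higher and 25 lower for MII with DMSO against GV, 22 higher and 5 lower for BYBX against DMSO and 2 higher and 7 lower for BYBX against GV, and with aligned medians 29 higher and 19 lower, 13 higher and 22 lower and 8 higher and 10 lower. Median log2 differences with equal totals were 0.46 for Fbxl, 0.14 for Fbxo, -1.10 for Fbxw in the first comparison, -0.027 for Fbxl, -0.018 for Fbxo, 0.75 for Fbxw in the second and 0.24 for Fbxl, -0.097 for Fbxo, -0.099 for Fbxw in the third, and with aligned medians 1.35 for Fbxl, 0.73 for Fbxo, -0.45 for Fbxw, then -0.57 for Fbxl, -0.52 for Fbxo, 0.33 for Fbxw, then 0.55 for Fbxl, 0.036 for Fbxo, -0.060 for Fbxw. With no filter on low values the Fbxo medians were -0.89, 0.42 and -0.66 in this order, and with a filter at 5 FPKM the Fbxw medians were -3.48, 2.09 and -1.46. The Fbxo median of BYBX against DMSO was 0.86 with a pseudocount of 0.1 and 0.69 to 0.92 with 1 library left out. Signs turned with equal totals in MII with DMSO minus GV for Fbxo43 1.24, Fbxw11 0.91, Fbxw7 1.07, Fbxw14 0.21, Fbxw22 0.67, Fbxw28 0.098, Fbxo8 1.09, Fbxl6 0.25, Fbxl5 0.84, Fbxl20 1.13, Fbxl12 0.73, Fbxl19 0.93 and Fbxo21 1.33, and in BYBX minus DMSO for Fbxo43 -0.61, Fbxw11 -0.045, Fbxw14 -0.095, Fbxw22 -0.27, Fbxw28 -0.11 and Fbxl6 -0.041. With aligned medians they turned in MII with DMSO minus GV for Fbxo43 1.69, Fbxw11 1.70, Fbxw7 1.86, Fbxo30 0.16, Fbxw14 0.62, Fbxw22 1.10, Fbxw28 0.52, Fbxo8 1.55, Fbxl6 0.69, Fbxl5 1.36, Fbxl20 1.70, Fbxl12 1.33, Fbxl19 1.96, Fbxo21 1.87 and Fbxo3 0.24, in BYBX minus DMSO for Fbxo43 -1.01, Fbxw11 -0.61, Fbxw7 -1.10, Fbxw14 -0.48, Fbxw22 -0.66, Fbxw28 -0.50 and Fbxl6 -0.43, and in BYBX minus GV for Fbxo43 0.68. Some of these turned signs were small and not called. With equal totals they were Fbxw14, Fbxw28 and Fbxl6 in MII with DMSO minus GV, and Fbxw11, Fbxw14, Fbxw22, Fbxw28 and Fbxl6 in BYBX minus DMSO. With aligned medians they were Fbxo30 and Fbxo3 in the former and Fbxl6 in the latter. Leaving out each library in turn gave 42 to 52 lower at MII with DMSO than at GV, 32 to 39 higher with BYBX than with DMSO, and 26 to 37 lower with BYBX than in GV. With the replicate number as a block the counts were 48, 32 and 33. The labels tie a replicate number to no shared animal or batch, and no consistent pairing was seen over the comparisons: the correlations of the deviations of same-numbered samples were 0.487 and 0.282 between GV and DMSO, -0.601 and -0.348 between DMSO and BYBX, and -0.330 between GV and BYBX, and no pairing was crossed.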
